A study of Mus musculus with 12 samples.

Results

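The genes described here encode the DNA replication machinery, the proteins that license origins of replication, fire them and copy the DNA behind the moving fork. They were chosen by name: 45 genes for origin recognition and licensing, origin firing, DNA polymerases and primase, the sliding clamp with its loader and lagging strand enzymes, the single-strand binding protein, fork protection and chromatin assembly. Of these, 44 were measured, among 18193 genes in all, by 90 of the 45037 probe sets tested. Chaf1a was not analysed here. A total of 32 members had more than 1 probe set, and the one with the highest mean over all arrays stands for the gene unless stated.

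The RNA came from B cells of mouse spleen, purified by removing CD43-positive cells to a stated purity above 98%, and was hybridised to single-channel Affymetrix arrays. There were 4 groups of 3 independent replicates: EFLmDREAM transgenic cells stimulated for 2 days, wild type cells stimulated for 2 days, EFLmDREAM transgenic cells without stimulation (day 0), and wild type cells without stimulation. Stimulation was culture in lipopolysaccharide (LPS, 20 µg/ml) with mouse recombinant interleukin 4 (IL-4, 10 ng/ml), which together drive resting B cells into the cell cycle. DREAM is the calcium-binding transcriptional repressor encoded by Kcnip3, and it is a different thing from the multiprotein DREAM complex that represses cell cycle genes. The promoter and founder of the transgene, its mutations, and the age and strain of the mice are not given in the sources used here.

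In a resting cell the origin recognition complex sits on DNA, but few origins carry a loaded helicase. As a cell leaves quiescence, CDC6 and CDT1 load the MCM helicase (licensing), and geminin later blocks CDT1 so that no origin is licensed again. The DBF4-dependent kinase CDC7 and cyclin E with CDK2 then fire origins by bringing CDC45 and the GINS complex to the helicase, after which polymerase alpha with primase starts each strand and polymerases delta and epsilon extend it on the PCNA clamp. In mammals many genes of this machinery are known targets of E2F transcription factors, which are held in check in quiescent cells.

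Values are log2 expression values, and a change or difference is given on the log2 scale ± SE, with n = 3 arrays per group. Array medians lay between 5.36 and 5.41 in the stimulated and between 5.97 and 6.05 in the unstimulated arrays, and the median of the probe sets' own changes between the states was −0.4 in either genotype. Stimulation changes were therefore taken after quantile normalization over the 12 arrays, and differences between genotypes from the values as deposited. Arrays of a group correlated at 0.984 to 0.997. Replicate 1 of the unstimulated wild type cells stood apart in RNA quality: its 5′ minus 3′ difference was −2.22 for actin and −1.78 for Gapdh, against −1.36 to −0.43 and −0.38 to 0.02 in the other 11 arrays. The Y-linked Eif2s3y read low in each group's replicate 3 (at most 3.78) and high in the other arrays (at least 8.27). B cell markers were present in every array, with a summed level of 7 measured markers between 13.66 and 15.12 (log2). In bulk RNA, fewer cycling cells and less replication RNA per cell cannot be told apart, and this applies to every level below.

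Promoters of the members were searched for E2F words first, because the members share this known form of control and the rule that chose them did not use sequence. RefSeq windows (GRCm38.p6) from 250 bases before to 50 bases after the transcript start were found for 36 members, 43 windows in all. The words TTTGGCGC, TTTCCCGC, TTTGCCGC and TTTCGCGC were counted on both strands. At least 1 of them stood in the windows of 13 of the 36 members (36.1%), against 704 of the 27025 genes with a window (2.6%). Over windows the shares were 30.2% of 43 member windows and 2.3% of all 32851 windows. These matches describe the sequence and do not show that a factor binds there. The 4 promoters below are those of Cdc6, the member with the largest rise on stimulation, of Mcm5 and Mcm6, whose words overlap on opposite strands, and of Orc1, whose probe sets are compared further on. Each run gives the 180 bases before the start, 5′ to 3′ on the strand of the gene, with the E2F words in capitals.
Cdc6: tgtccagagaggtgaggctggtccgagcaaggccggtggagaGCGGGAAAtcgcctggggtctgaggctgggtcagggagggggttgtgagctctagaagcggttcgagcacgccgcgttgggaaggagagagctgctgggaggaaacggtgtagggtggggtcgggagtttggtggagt
Mcm5: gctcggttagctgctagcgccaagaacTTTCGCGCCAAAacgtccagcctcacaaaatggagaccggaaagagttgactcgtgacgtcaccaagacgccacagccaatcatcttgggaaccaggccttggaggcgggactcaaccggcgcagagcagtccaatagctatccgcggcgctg
Mcm6: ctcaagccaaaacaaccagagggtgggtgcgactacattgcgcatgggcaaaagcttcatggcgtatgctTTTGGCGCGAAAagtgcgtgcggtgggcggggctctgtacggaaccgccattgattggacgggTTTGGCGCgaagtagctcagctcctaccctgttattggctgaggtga
Orc1: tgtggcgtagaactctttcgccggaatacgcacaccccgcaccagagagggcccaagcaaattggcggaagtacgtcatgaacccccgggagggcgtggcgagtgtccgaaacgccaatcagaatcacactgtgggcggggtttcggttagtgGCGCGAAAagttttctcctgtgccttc
The Cdc6 run lies at chr11:98907971-98908150 on the plus strand, with its word at −138 (positions are counted in bases from the transcript start, negative before it). The Mcm5 run lies at chr8:75109329-75109508 on the plus strand, with overlapping words at −153 and −149. The Mcm6 run lies at chr1:128359706-128359885 on the minus strand, with overlapping words at −110 and −106 and another at −47. The Orc1 run lies at chr4:108579274-108579453 on the plus strand, with its word at −27.

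The 13 members with a word were Cdc6, Cdt1, Orc1, Mcm3, Mcm5, Mcm6, Mcm7, Gins3, Pola1, Pold1, Pole2, Rfc3 and Lig1. They held 19 words, and 8 of the 13 had a word before the start. Other short motifs stood nearer to their background. The cell cycle homology region TTTGAA was in 18.6% of member windows and 17.9% of all windows, and the CCAAT box (CCAAT) in 53.5% and 37.4%. GTCA, the core of the downstream regulatory element that DREAM is known to bind, was in 90.7% of member windows and 85.2% of all windows, a word so short that most windows hold it.

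**Figure D1:**
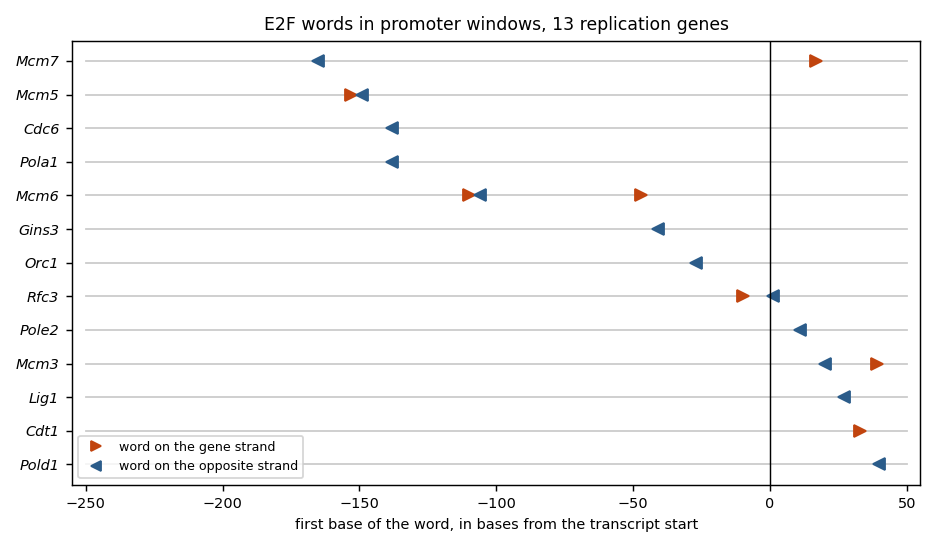
E2F words in the promoter windows of the 13 members that hold one. The x axis gives the first base of each word in bases from the transcript start (0 line); arrowheads pointing right are on the strand of the gene and those pointing left on the opposite strand. The words lie between −165 (Mcm7) and 40 (Pold1), and 8 genes have one before the start.

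The comparison of stimulated with unstimulated cells asked which replication genes moved as B cells were activated. After 2 days 40 of the 44 members had risen and 1 had fallen in transgenic cells, and 40 had risen and 1 had fallen in wild type cells (limma, adjusted p under 0.05). Of all 18193 genes, 35.2% rose and 23.3% fell in transgenic cells, and 36.0% rose and 24.0% fell in wild type cells. The median change of the members was 1.74 in transgenic and 1.82 in wild type cells, against 0.08 over all genes in each genotype. At least a 2-fold rise was seen for 38 members in transgenic and 37 in wild type cells, at least 4-fold for 16 and 18, and at least 8-fold for 4 and 4. Markers of mitosis moved with them: 7 of 7 rose in each genotype, with a median change of 3.30 in transgenic and 3.65 in wild type cells. B cell markers fell in 6 of 7 cases in each genotype. Granulocyte markers fell in 7 of 7 cases in transgenic and 4 of 7 in wild type cells. On deposited values their summed levels were 8.16 to 8.45 in stimulated transgenic and 7.66 to 7.72 in stimulated wild type cells. In unstimulated cells they were 13.18 to 13.7 and 9.28 to 9.45. Monocyte and macrophage markers fell in 8 of 8 cases in transgenic and 4 of 8 in wild type cells, T and NK cell markers in 6 of 8 and 5 of 8, and erythroid markers in 5 of 6 and 3 of 6. Their part in the member changes was not tested. With the mean of a gene's probe sets in place of its brightest one, the changes of 7 of the 41 called members in transgenic and 9 of 41 in wild type cells were over 1.5 times smaller and that of Orc1 was larger. Besides the genes described below, this held for Cdc45 (1.19 and 1.11 with the mean), Pola1 (1.08 and 1.08) and Prim2 (0.95 and 1.15), and in wild type cells for Mcm6 (1.48) and Cdt1 (−0.73). Over all 90 probe sets 74 rose and 2 fell in transgenic cells, and 73 rose and 4 fell in wild type cells, where 30.1% of all probe sets rose and 25.1% fell in transgenic cells and 30.7% rose and 26.1% fell in wild type cells. The arrays of the states did not overlap, upward, for 40 members in transgenic cells (40.1% of all genes) and 39 in wild type cells (38.4%), and downward for 1 in each (27.1% and 26.1% of all genes).

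**Figure D2:**
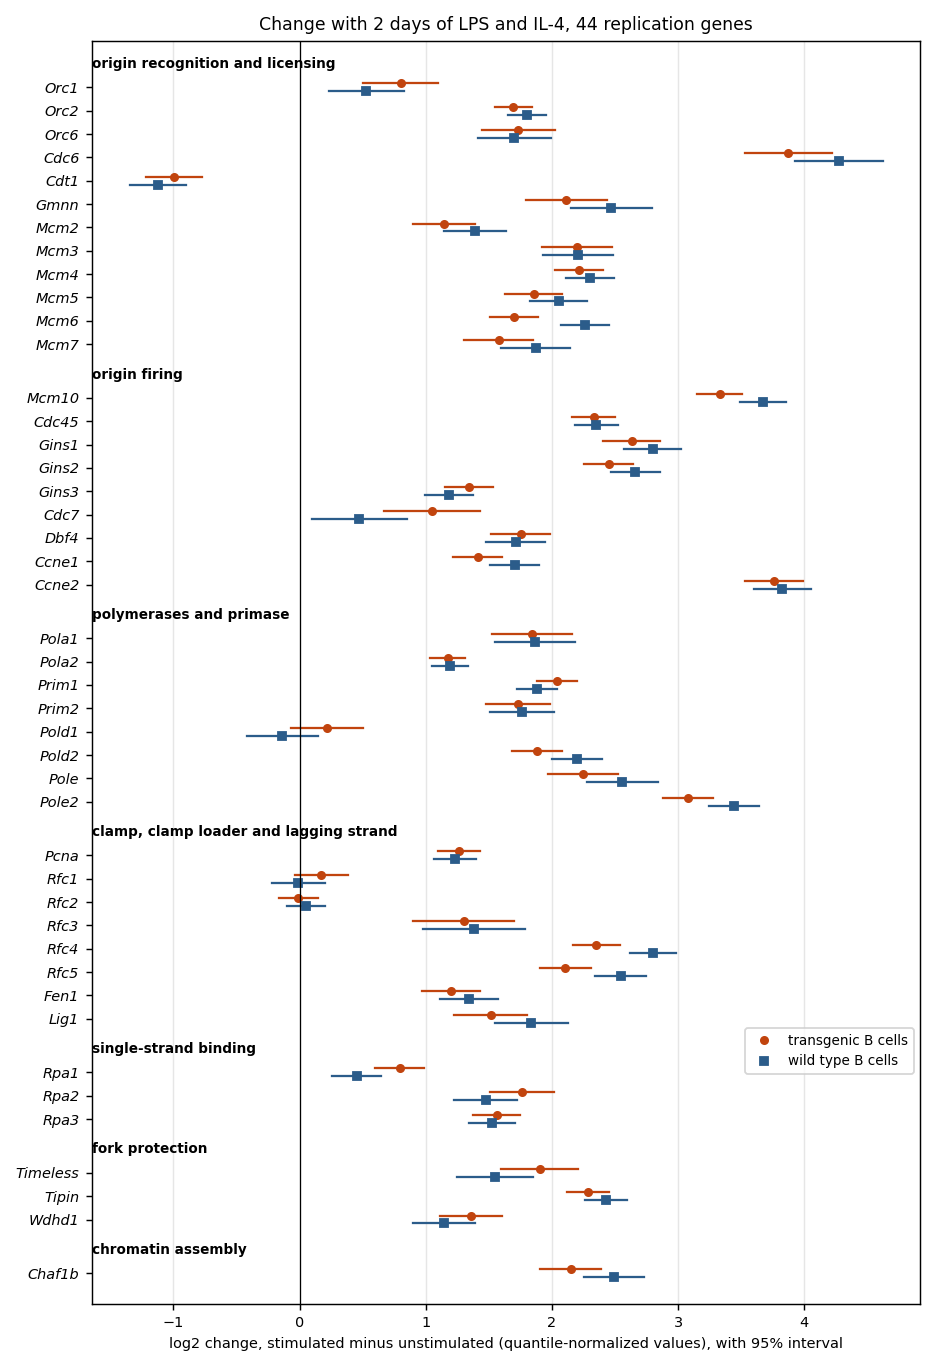
Change of each of the 44 measured members with stimulation, grouped by role. The x axis is the log2 change, stimulated minus unstimulated, on quantile-normalized values, with 95% intervals; circles are transgenic and squares wild type B cells, 3 arrays per group. Cdc6 lies farthest to the right (3.87 in transgenic, 4.28 in wild type cells), and Cdt1 is the member that fell.

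Among the licensing genes 11 of 12 rose in each genotype, with medians of 1.72 in transgenic and 1.96 in wild type cells. Cdc6, the ATPase that loads the helicase with CDT1, read 10.02, 10.02 and 9.79 in stimulated transgenic cells, against 6.13, 5.96 and 6.12 in unstimulated transgenic cells. In stimulated wild type cells it read 10.05, 9.98 and 9.89, against 6.14, 5.64 and 5.31 in unstimulated wild type cells. All stimulated arrays lay far above all unstimulated ones: the change was 3.87 ± 0.16 in transgenic cells (14.7-fold, limma adjusted p = 4.89e-10) and 4.28 ± 0.16 in wild type cells (19.4-fold, limma adjusted p = 1.82e-10). The 6 MCM helicase subunits rose together, by 1.14 to 2.21 in transgenic and 1.39 to 2.30 in wild type cells, with Mcm4 highest and Mcm2 lowest in either genotype. Gmnn, which encodes geminin, rose 4.32-fold in transgenic and 5.54-fold in wild type cells. The origin recognition subunits among the members, Orc1, Orc2 and Orc6, rose by 0.80 to 1.73 in transgenic and 0.53 to 1.80 in wild type cells. Orc1 depended on the probe set: its brighter probe set rose by 0.80 in transgenic and 0.53 in wild type cells, and its other probe set by 2.63 and 3.19. The size for the brighter one also rested on how the arrays are scaled. Its deposited means were 7.43 in stimulated and 7.14 in unstimulated transgenic cells, and 7.26 and 7.21 in wild type cells.

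Cdt1, the partner of Cdc6 in loading the helicase, went the other way. It read 10.65, 10.69 and 10.46 in stimulated transgenic cells, against 11.68, 11.48 and 11.63 in unstimulated transgenic cells. In stimulated wild type cells it read 10.68, 10.65 and 10.58, against 11.98, 11.72 and 11.59 in unstimulated wild type cells. Every stimulated array was below every unstimulated array, and the change was −0.997 ± 0.10 in transgenic cells (limma adjusted p = 2.74e-06) and −1.12 ± 0.10 in wild type cells (limma adjusted p = 8.16e-07). A second Cdt1 probe set changed by −1.28 in transgenic and −0.92 in wild type cells, while the dimmest one did not pass the test in either genotype. For the brightest probe set the fall rests on how the arrays are scaled: with each array's median subtracted, the changes were −0.08 (adjusted p = 0.491) and −0.21 (adjusted p = 0.0933). The second probe set was not tested on that scale. Its deposited means were 9.64 in stimulated and 10.76 in unstimulated transgenic cells, and 9.79 and 10.53 in wild type cells. With array medians subtracted, too, the brightest Cdt1 probe set did not rise with the other licensing genes.

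All 9 origin firing genes rose in each genotype, with medians of 2.33 in transgenic and 2.35 in wild type cells, the highest of the roles with more than 1 member in transgenic cells. Ccne2, which encodes cyclin E2, read 8.16, 8.10 and 8.14 in stimulated transgenic cells, against 4.36, 4.50 and 4.27 in unstimulated transgenic cells. In stimulated wild type cells it read 8.21, 8.08 and 8.01, against 4.52, 4.18 and 4.13 in unstimulated wild type cells. The change in Ccne2 was 3.76 ± 0.10 (13.5-fold) in transgenic and 3.83 ± 0.10 (14.2-fold) in wild type cells, more than that of Ccne1, cyclin E1, which rose by 1.41 and 1.71. The unstimulated Ccne2 values lay in the lowest 25% of their arrays, and whether they stood above background is not known from these values. Mcm10, a fork factor needed to start unwinding, read 9.50, 9.52 and 9.34 in stimulated and 6.01, 6.11 and 6.25 in unstimulated transgenic cells. In wild type cells Mcm10 read 9.53, 9.52 and 9.54 when stimulated and 5.95, 5.78 and 5.86 when unstimulated, so that the states did not overlap. It rose by 3.33 ± 0.08 in transgenic cells (limma adjusted p = 1.02e-11) and by 3.67 ± 0.08 in wild type cells (limma adjusted p = 3.77e-12). The size depended on the probe set: the other probe sets of Mcm10 changed by 0.29 and 0.67 in transgenic and by 0.03 and 0.83 in wild type cells, and with the mean of the gene's probe sets the change was 1.43 and 1.51. Cdc45 rose 5.04-fold in transgenic and 5.11-fold in wild type cells, and Gins1, Gins2 and Gins3 of the GINS complex by 1.34 to 2.63 and 1.19 to 2.80. Dbf4, the activating subunit of the origin firing kinase, rose 3.37-fold and 3.28-fold.

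The catalytic partner of Dbf4, Cdc7, rose by 1.05 ± 0.17 in transgenic cells (limma adjusted p = 0.000198). In wild type cells its change was 0.47 ± 0.17 (limma adjusted p = 0.0338), with stimulated arrays at 8.67, 8.61 and 8.66 and unstimulated arrays at 8.72, 8.02 and 7.79. The wild type states overlapped through unstimulated replicate 1, the array that stood apart in RNA quality. Without that replicate the wild type change was 0.75 (adjusted p = 2.11e-05), and the call was lost when any other single replicate was left out (changes of 0.28 to 0.49). Whether the RNA quality of that array has a part in this was not tested. These values are from the brighter Cdc7 probe set. The dimmer one rose by 0.605 in wild type cells, without overlap of the states. With the mean of both the wild type change was 0.54 (limma adjusted p = 0.00056).

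**Figure D3:**
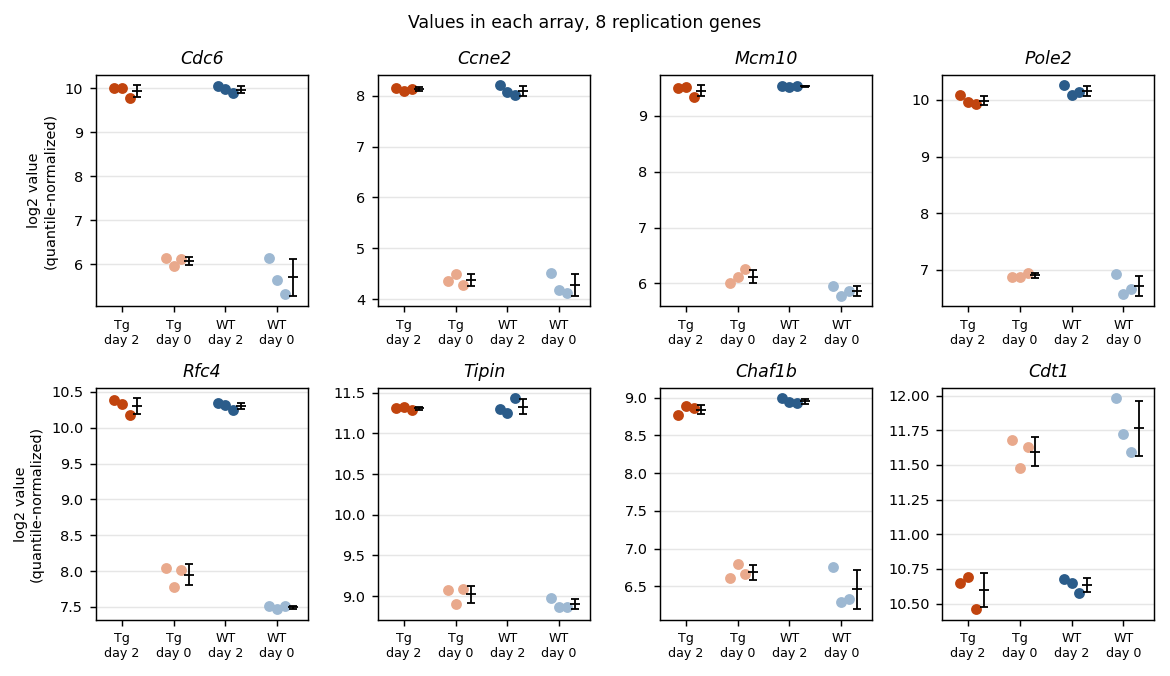
Quantile-normalized log2 values in each array for 8 members given in the text. Points are the 3 arrays of each group (Tg, transgenic; WT, wild type; day 2, stimulated; day 0, unstimulated), with the mean and SD beside them, and each panel has its own y axis. Stimulated arrays lie above unstimulated ones in 7 panels and below them for Cdt1.

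Of the 8 polymerase and primase genes 7 rose in each genotype. Pole2, the second subunit of the leading strand polymerase epsilon, read 10.08, 9.96 and 9.92 in stimulated and 6.88, 6.88 and 6.95 in unstimulated transgenic cells. In wild type cells it read 10.26, 10.09 and 10.13 when stimulated and 6.92, 6.58 and 6.66 when unstimulated. Again the states were far apart: Pole2 rose by 3.08 ± 0.09 (8.46-fold, limma adjusted p = 3.76e-11) in transgenic and by 3.44 ± 0.09 (10.8-fold, limma adjusted p = 1.24e-11) in wild type cells. With the mean of its 2 probe sets the change of Pole2 was 1.76 in transgenic and 2.05 in wild type cells. Its catalytic partner Pole rose by 2.25 and 2.56. The 4 genes of polymerase alpha with primase rose by 1.17 to 2.04 in transgenic and 1.19 to 1.88 in wild type cells. For Pola2 this held for the brightest probe set only, since the others changed by −0.12 and 0.11 in transgenic cells (limma adjusted p = 0.381 and 0.325) and by −0.30 (a fall, limma adjusted p = 0.0293) and 0.16 (limma adjusted p = 0.151) in wild type cells. Polymerase delta was split. Pold2, an accessory subunit, rose by 1.88 and 2.20, but the change of Pold1, the catalytic subunit, was 0.22 (interval −0.065 to 0.501, limma adjusted p = 0.177) in transgenic and −0.14 (interval −0.419 to 0.147, limma adjusted p = 0.396) in wild type cells.

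The clamp and lagging strand group had 6 of 8 rises in each genotype. Pcna, the sliding clamp, rose by 1.26 ± 0.08 in transgenic and 1.23 ± 0.08 in wild type cells. The clamp loader, a ring of 5 subunits, did not move as one. Rfc4 read 10.39, 10.33 and 10.18 in stimulated and 8.05, 7.78 and 8.01 in unstimulated transgenic cells, a change of 2.35 ± 0.09. In wild type cells Rfc4 read 10.34, 10.31 and 10.25 when stimulated and 7.51, 7.47 and 7.51 when unstimulated, a change of 2.80 ± 0.09. Rfc3 and Rfc5 rose as well (Rfc3 by 1.30 and 1.38, Rfc5 by 2.11 and 2.54), whereas the large subunit Rfc1 (0.17 and −0.01) and Rfc2 (−0.01 and 0.05) did not pass the test in transgenic or wild type cells. For Rfc2 the probe sets disagreed, since its 2 dimmer ones rose by 0.74 and 0.62 in transgenic and 0.51 and 0.39 in wild type cells. For the dimmest one the rise rested on how the arrays are scaled. Its deposited means were 6.08 in stimulated and 6.09 in unstimulated transgenic cells, and 6.05 and 6.26 in wild type cells. With array medians subtracted Rfc1, Rfc2 and Pold1 were called higher too, Rfc1 by 0.79 and 0.62, Rfc2 by 0.83 and 0.86 and Pold1 by 0.92 and 0.59, all below the median change of the members. Fen1, the flap nuclease, and Lig1, the ligase that joins lagging strand fragments, rose by 1.20 and 1.52 in transgenic and 1.34 and 1.84 in wild type cells.

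All 3 subunits of replication protein A, which coats single-stranded DNA, rose in each genotype. Rpa2 read 9.45, 9.49 and 9.51 in stimulated and 7.66, 7.70 and 7.81 in unstimulated transgenic cells, a change of 1.76 ± 0.12, and its change in wild type cells was 1.47 ± 0.12. Rpa3 read 10.42, 10.27 and 10.23 in stimulated and 8.92, 8.72 and 8.71 in unstimulated wild type cells, a change of 1.53 ± 0.09, and its change in transgenic cells was 1.56 ± 0.09. The large subunit Rpa1 moved least of the 3, by 0.79 in transgenic and 0.45 in wild type cells. The fork protection genes Timeless, Tipin and Wdhd1 rose by 1.36 to 2.29 in transgenic and 1.14 to 2.43 in wild type cells. Tipin read 11.31, 11.32 and 11.29 in stimulated and 9.07, 8.90 and 9.09 in unstimulated transgenic cells, and 11.30, 11.25 and 11.43 in stimulated and 8.97, 8.86 and 8.87 in unstimulated wild type cells. Chaf1b, a subunit of the histone chaperone that assembles nucleosomes behind the fork, read 8.77, 8.89 and 8.86 in stimulated and 6.61, 6.80 and 6.66 in unstimulated transgenic cells, a change of 2.15 ± 0.11. In wild type cells Chaf1b read 8.99, 8.94 and 8.93 when stimulated and 6.76, 6.29 and 6.33 when unstimulated, a change of 2.49 ± 0.11. The states did not overlap for any of these genes on the probe sets given. The dimmer probe set of Chaf1b changed by −0.07 (limma adjusted p = 0.392) in transgenic cells and fell by 0.175 (limma adjusted p = 0.0361) in wild type cells, and with the mean of both the change was 1.04 and 1.16.

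The changes of the members were alike in rank between the genotypes, with r = 0.978 and rho = 0.951 across the 44 genes, which share arrays within each genotype and are not independent. Over all genes r was 0.942. The change was smaller in transgenic cells for 29 of the 44 members and for 50.7% of all genes, while among all genes that rose in wild type cells 63.9% had a smaller change in transgenic cells. The 13 members with an E2F word in the promoter window had a median change of 1.58 in transgenic and 1.87 in wild type cells, and 22 measured members with a window but no word had 1.71 and 1.63; the difference between them was not tested and its sign is not the same in the genotypes.

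Other replication genes gave a similar picture. Of 37 listed, 36 were measured, and 32 rose and 1 fell in transgenic cells, with a median change of 1.09, while 33 rose and 1 fell in wild type cells, with a median of 1.18. Top2a, topoisomerase II alpha, changed by 3.29 ± 0.15 in transgenic and 3.42 ± 0.15 in wild type cells, and Dscc1, part of an alternative clamp loader, by 3.22 ± 0.19 and 3.37 ± 0.19. Clspn, the checkpoint adaptor claspin, changed by 3.20 ± 0.13 in transgenic cells, and Ccna2, cyclin A2, by 3.45 ± 0.09 in wild type cells. Other probe sets of Top2a, Dscc1 and Clspn changed less. In transgenic cells those of Top2a averaged 8.93 and 5.53 when stimulated and 7.10 and 5.50 when unstimulated. The other Dscc1 one averaged 6.37 and 5.28 there, and that of Clspn 6.96 and 6.18. The other Ccna2 one averaged 10.66 in stimulated and 7.28 in unstimulated wild type cells. Pold4, the small subunit of polymerase delta, was the gene that fell (−0.95 ± 0.24 and −0.83 ± 0.24).

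The comparison of stimulated transgenic with stimulated wild type cells asked whether the transgene altered replication gene levels in activated cells. No member passed the test in either direction (limma), where 1.24% of all genes were higher and 1.10% lower, and 3 members (6.82%) had an unadjusted p under 0.05, against 13.2% of all genes. The differences ran from −0.27 to 0.17 with a median of −0.06, against 0.0 over all genes. Below 0 were 38 of the 44 members, and 8979 of all 18193 genes. The precision was enough to bound them: the 95% interval of every member lay within 1 log2 unit of 0, and that of 42 members within 0.5. The lowest bound was −0.562 (Orc6) and the highest 0.476 (Orc1). In 12 members every transgenic array was below every wild type array and in none was it above, where 12.2% of all genes were apart downward and 9.76% upward.

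Rfc5 had the lowest adjusted p. It read 9.86, 9.83 and 9.88 in stimulated transgenic and 10.05, 10.14 and 10.20 in stimulated wild type cells, a difference of −0.27 ± 0.08 (limma adjusted p = 0.143). Orc6 read 9.25, 9.19 and 9.17 in stimulated transgenic and 9.59, 9.42 and 9.41 in stimulated wild type cells, a difference of −0.27 ± 0.13 (limma adjusted p = 0.507). The groups did not overlap for either gene, yet the differences did not pass the test. Pcna read 13.11, 13.11 and 13.22 in transgenic and 13.06, 13.07 and 13.16 in wild type cells and differed by 0.05. Markers of mitosis had a summed level of 13.52 to 13.58 in transgenic and 13.58 to 13.60 in wild type cells, and 0 of 7 passed the test (limma; 0 at an unadjusted p under 0.05). Granulocyte markers were higher in 2 of 7 cases and monocyte and macrophage markers in 2 of 8, and their part was not tested. Of the 36 other replication genes 1 was lower, Supt16, a subunit of the histone chaperone FACT (−0.73 ± 0.16, limma adjusted p = 0.0314).

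**Figure D4:**
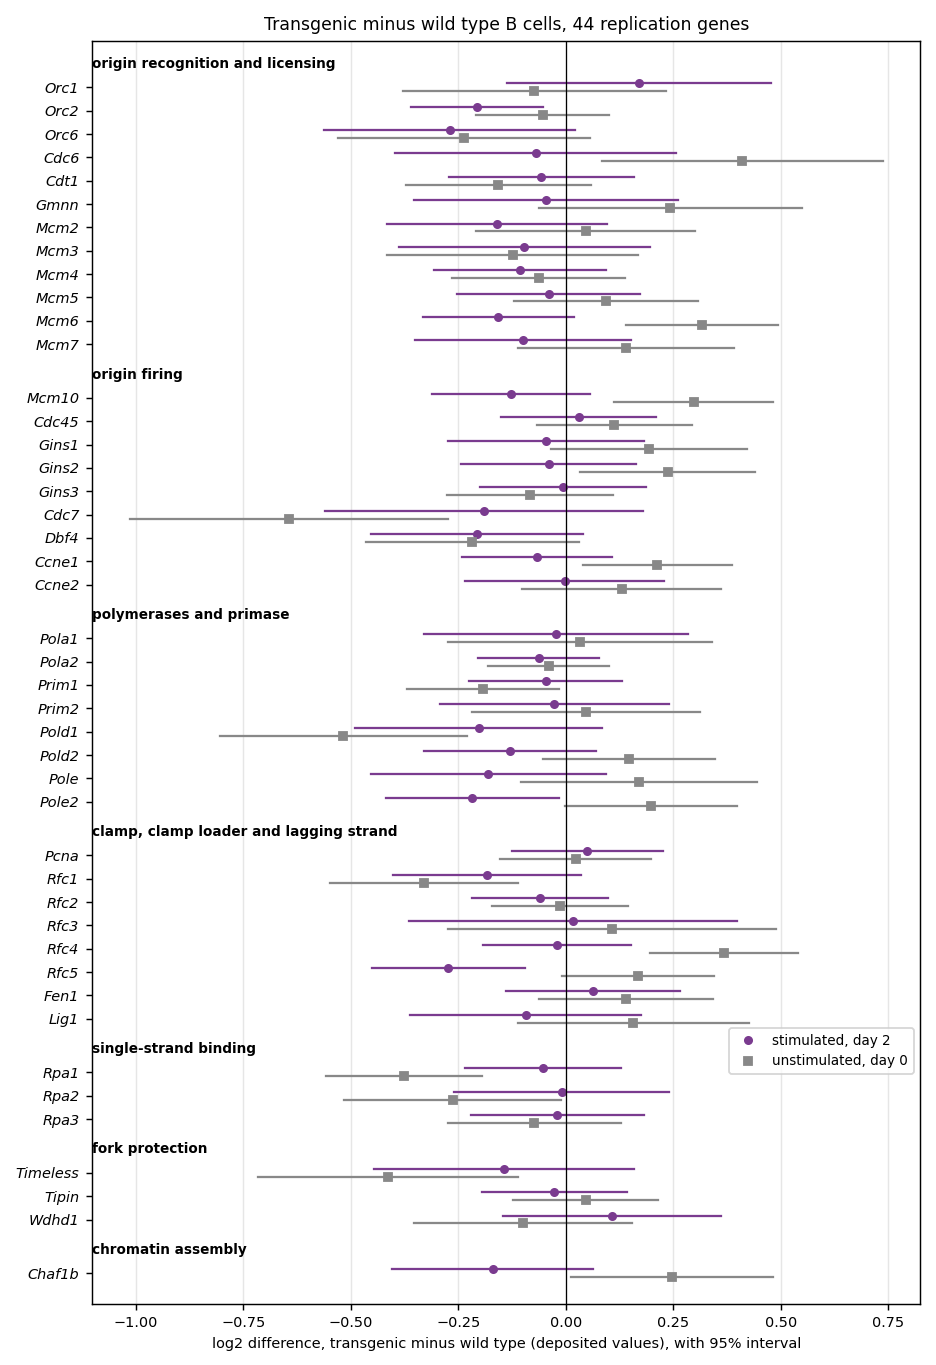
Difference between genotypes for each of the 44 measured members, grouped by role. The x axis is the log2 difference, transgenic minus wild type, on deposited values, with 95% intervals; circles are stimulated and squares unstimulated cells, 3 arrays per group. Stimulated differences stay between −0.27 and 0.17, and unstimulated ones run from −0.64 (Cdc7) to 0.41 (Cdc6).

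In unstimulated cells 3 members were higher and 3 lower in transgenic than in wild type cells (limma, adjusted p under 0.05), where 5.45% of all genes were higher and 4.90% lower. With array medians subtracted the split was 1 higher and 4 lower. The median difference was 0.05, against 0.01 over all genes, and 14 members (31.8%) had an unadjusted p under 0.05, against 25.3% of all genes. Rfc4, a small clamp loader subunit, read 8.18, 7.98 and 8.12 in transgenic and 7.77, 7.71 and 7.70 in wild type cells, a difference of 0.37 ± 0.08 (limma adjusted p = 0.0121). Mcm6, a helicase subunit, read 9.94, 9.93 and 10.03 in transgenic and 9.76, 9.59 and 9.60 in wild type cells, a difference of 0.32 ± 0.08 (limma adjusted p = 0.0288). Mcm10 read 6.34, 6.43 and 6.58 in transgenic and 6.22, 6.06 and 6.18 in wild type cells, a difference of 0.30 ± 0.08 (limma adjusted p = 0.0459). For these 3 genes every transgenic array was above every wild type array, as it was for 7 members in all (13.2% of all genes), and it was below for 6 members (12.2%).

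The 3 lower genes were Cdc7, Pold1 and Rpa1. Cdc7, the origin firing kinase, read 7.80, 7.69 and 7.56 in transgenic and 8.85, 8.20 and 7.93 in wild type cells, a difference of −0.64 ± 0.17 (limma adjusted p = 0.0332). Pold1, the catalytic subunit of polymerase delta, read 9.48, 9.26 and 9.26 in transgenic and 10.15, 9.77 and 9.63 in wild type cells, a difference of −0.52 ± 0.13 (limma adjusted p = 0.0290). Rpa1, the large subunit of replication protein A, read 10.92, 10.81 and 10.94 in transgenic and 11.36, 11.31 and 11.13 in wild type cells, a difference of −0.38 ± 0.08 (limma adjusted p = 0.0141). Here every transgenic array was below every wild type array, and the wild type values were highest in replicate 1, the array that stood apart in RNA quality. A second probe set of Cdc7 was lower as well (−0.39, adjusted p = 0.026). The dimmer probe sets of Mcm2 (0.33) and Orc1 (0.34) were called higher, while the brighter ones of these genes were not (0.05 and −0.07). The next brightest probe sets of Rfc4 (−0.19, adjusted p = 0.504), Mcm6 (0.037, adjusted p = 0.904), Pold1 (−0.16, adjusted p = 0.369) and Rpa1 (−0.03, adjusted p = 0.88) did not pass the test, nor did the other probe sets of Mcm10 (−0.10 and 0.12, adjusted p = 0.706 and 0.443).

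**Figure D5:**
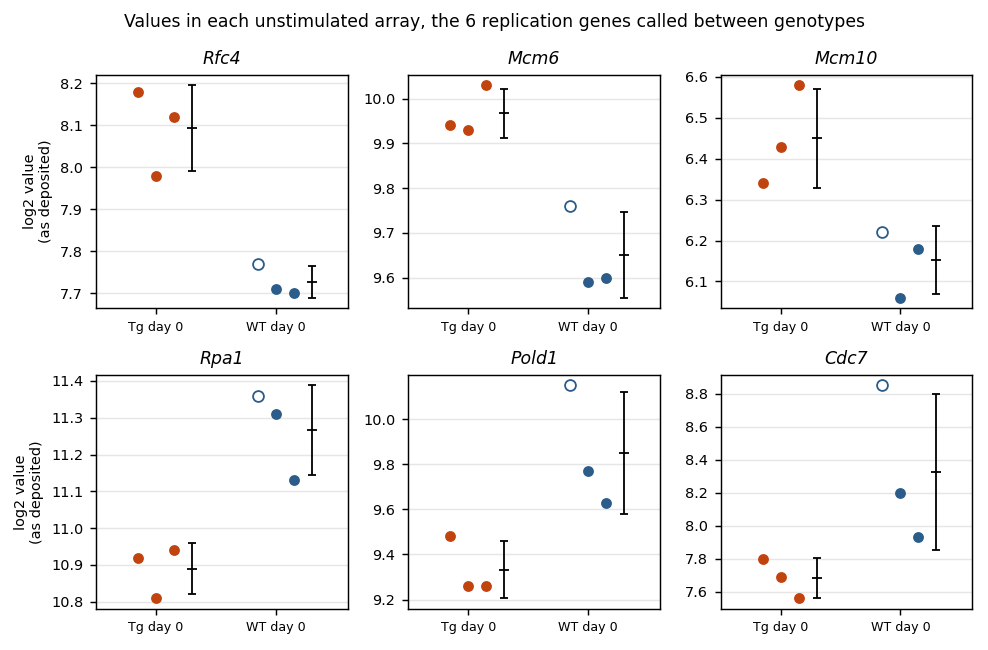
Deposited log2 values in each unstimulated array for the 6 members called between genotypes. Points are the 3 transgenic (left) and 3 wild type (right) arrays with the mean and SD beside them; the open circle is wild type replicate 1, and each panel has its own y axis. In the upper row the transgenic arrays lie above the wild type arrays, in the lower row below them, and the open circle is the highest wild type value in every panel.

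These unstimulated calls depended on single arrays. Without wild type replicate 1, 5 members were higher (Cdc6 by 0.62, Gmnn by 0.44, Chaf1b by 0.39, with Mcm6 and Rfc4) and 2 lower (Cdc7 and Rpa1). Without wild type replicate 3, 3 were higher and 8 lower (Orc6, Cdc7, Dbf4, Prim1, Pold1, Rpa1, Rpa2 and Timeless). Without transgenic replicate 1 the split was 1 and 2, without transgenic replicate 2 it was 1 and 0, without transgenic replicate 3 it was 0 and 1, and without wild type replicate 2 it was 1 and 1. Markers of other cells moved with genotype in the same arrays. Granulocyte markers were higher in 7 of 7 cases (median difference 3.36, summed level 13.18 to 13.70 in transgenic and 9.28 to 9.45 in wild type cells). All 8 monocyte and macrophage markers were higher (summed level 12.96 to 13.57 and 11.89 to 12.26), as were 5 of 6 erythroid markers (10.92 to 11.37 and 10.44 to 10.46) and 3 of 8 T and NK cell markers (9.94 to 10.07 and 9.07 to 9.41). The remaining erythroid marker, Tfrc, was lower on its brightest probe set (mean 9.39 in transgenic and 9.83 in wild type cells). Its other probe sets averaged higher in transgenic cells (6.67 against 6.18, and 4.81 against 4.32). B cell markers had summed levels of 14.96 to 14.98 in transgenic and 14.83 to 15.12 in wild type cells, with 0 of 7 higher and 1 lower. Markers of mitosis had summed levels of 11.02 to 11.13 in transgenic and 10.77 to 11.23 in wild type cells, with 1 of 7 higher. Taken singly, 6 of these 7 had a difference above 0 (median 0.35), and 4 had an unadjusted p under 0.05 (limma). Their part in the replication gene differences was not tested.

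Of the 36 other replication genes 2 were higher in unstimulated transgenic cells, Dna2, a helicase and nuclease of the lagging strand (0.68 ± 0.17, limma adjusted p = 0.0249), and Donson, a fork factor (0.45 ± 0.11, limma adjusted p = 0.0192). Lower were Supt16 (−0.82 ± 0.16, limma adjusted p = 0.00595) and Cdk2, the kinase partner of cyclin E (−0.44 ± 0.10, limma adjusted p = 0.0167). These values are from the brightest probe sets. The dimmer Supt16 one averaged 6.06 in transgenic and 6.04 in wild type cells, and that of Cdk2 3.32 and 3.28. The dimmer Donson one averaged lower in transgenic cells. Those of Dna2 averaged 6.14 and 6.05 in transgenic and 6.03 and 5.84 in wild type cells. How these calls depend on single arrays is not given here.

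Whether stimulation changed a gene by a different amount in the genotypes was tested by the interaction, the transgenic change minus the wild type change on deposited values. No member passed (limma), where 0.588% of all genes had a positive and 1.39% a negative interaction, and 9 of the 44 (20.5%) had an unadjusted p under 0.05, as had 2728 of all 18193 genes (15%). The interactions ran from −0.48 (Cdc6) to 0.45 (Cdc7), with a median of −0.08 against −0.01 over all genes. The closest to a call was Mcm6 (−0.47 ± 0.12, limma adjusted p = 0.0654). Over all 90 probe sets 0 had a positive and 1 a negative interaction that passed, where 0.575% and 1.0% of all probe sets did. All 44 intervals lay within 1 log2 unit of 0, but only 20 within 0.5. Without unstimulated wild type replicate 1, 4 members had a negative interaction that passed: Cdc6 (−0.69, adjusted p = 0.0373), Mcm6 (−0.53, adjusted p = 0.0362), Pole2 (−0.51, adjusted p = 0.0443) and Chaf1b (−0.56, adjusted p = 0.0209). Granulocyte markers had a negative interaction in 7 of 7 cases, monocyte and macrophage markers in 4 of 8 and erythroid markers in 4 of 6. Of the markers of mitosis 0 of 7 passed. Their median interaction was −0.38, with 6 of 7 below 0 and 3 at an unadjusted p under 0.05 (limma). The part of all these markers in the member values was not tested.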

How the data were processed

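RNA of 12 mouse B cell samples, 4 groups of 3, was measured on Affymetrix arrays from 4 µg of total RNA. The values the authors deposited are log2 expression per probe set, summarised by RMA (the submitters' processing notes name RMA and affy); versions, and whether all arrays were normalized in 1 run, are not given in the sources used here. Of the probe sets, 64 array controls were left out. Probe sets carried 1 gene symbol (34945), several (932) or none (9160), from a dated platform annotation; 34741 of the first kind matched a current gene through their Entrez identifier.

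Groups and replicate numbers follow the sample titles. A model with 1 coefficient per group was fitted with limma 3.58.1 (R 4.3.3; lmFit and eBayes, 8 residual degrees of freedom, prior 4.71 on deposited and 4.55 on quantile-normalized values). The p-values were adjusted by Benjamini and Hochberg over 45037 probe sets, with a call at an adjusted p under 0.05. The distributions of the deposited values differed between states, so stimulation changes used quantile-normalized values. Array values carry no read depth, and precision is limited by the 3 arrays per group. Known changes in simulated data were used to test the limma step for the comparison of stimulated genotypes. Quantile normalization and the other comparisons were not tested in this way.

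The members, roles, marker lists and other replication genes were chosen with earlier results of these data known. All members may be named; values in every array are given for called members with the largest change, up to 4 per direction and contrast, and for the largest of each role. The values of Rfc5, Orc6 and Pcna between stimulated groups were chosen after they were seen. Same-numbered replicates deviated together for the stimulated genotypes (r = 0.33, 0.101 and 0.178) and for wild type stimulation (0.318, 0.175 and 0.19). For the unstimulated genotypes the values were 0.078, 0.07 and 0.297, against −0.193 to 0.112 between differently numbered replicates. For transgenic stimulation they were mixed (0.069, −0.16 and 0.115, against −0.183 to 0.159). The main tests held no replicate term and were unpaired in every comparison. The replicate block was fitted only as an alternative. Alternatives covered normalization, dim probe sets, the prior, the replicate block, the arrays fitted, the probe set rule and leaving out each replicate. Promoter windows are from RefSeq.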

Additional observations from a re-analysis of the deposited data

Results flagged for a closer look

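The dimmer of the 2 Orc1 probe sets was the only member probe set with an interaction that passed the test. It read 8.27, 8.02 and 8.07 in stimulated transgenic and 8.53, 8.41 and 8.40 in stimulated wild type cells, and 6.02, 5.83 and 6.05 in unstimulated transgenic and 5.64, 5.63 and 5.60 in unstimulated wild type cells. The stimulation change was therefore smaller in transgenic cells by 0.67 on the log2 scale (interaction −0.67 ± 0.12, limma adjusted p = 0.0167, n = 3 arrays per group), with no overlap between genotypes in either state. Over its alternatives the interaction ran from −0.75 to −0.56, with adjusted p from 0.0134 to 0.0528, and the call was lost without stimulated transgenic replicate 2 (adjusted p = 0.0524) or unstimulated transgenic replicate 3 (adjusted p = 0.0528). The brighter Orc1 probe set had an interaction of 0.24 (adjusted p = 0.662), so the probe sets of this gene disagree.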

How the results depend on the processing

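Stimulation counts moved little: 40 to 43 members rose in transgenic and 39 to 43 in wild type cells over all alternatives, and the median change was 1.60 to 2.26 and 1.63 to 2.27. With array medians subtracted 0 members fell in either genotype, since the fall of the brightest Cdt1 probe set was lost. Some signs turned: Rfc2 in transgenic cells changed by 0.19 on deposited values, 0.83 with array medians subtracted and 0.45 with the mean of its probe sets, and in wild type cells Pold1 changed by 0.59 and Rfc1 by 0.62 with array medians subtracted. The Cdc7 call in wild type cells was lost in 7 of 13 alternatives. Between stimulated genotypes 0 members passed under every alternative. Between unstimulated genotypes 1 was higher with array medians subtracted, 0 were higher and 0 lower when only the arrays of the 2 groups were fitted, and 0 were higher with the mean of the probe sets; leaving out 1 replicate gave 0 to 5 higher and 0 to 8 lower. Over 13 alternatives Rpa1 was called in 10, Rfc4 in 9, Cdc7 and Pold1 in 8, Mcm6 in 6 and Mcm10 in 3. With the replicate block as a paired analysis 2 members were higher and 4 lower between unstimulated genotypes, and no other count of members changed. For the interaction 1 member was negative with quantile normalization (Mcm6), 1 with an intensity trend and robust prior (Mcm6) and 1 with the mean of the probe sets (Rfc5), and leaving out 1 replicate gave 0 to 4. The cause of these moves was not tested. The number of arrays limits the precision.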
